A study of Mus musculus with 6 samples.

Results

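The genes of type I interferon reception and of ISGF3, the transcription factor that this receptor activates, were followed in imiquimod-treated mouse ear skin. They are the receptor genes Ifnar1 and Ifnar2, the kinase genes Jak1 and Tyk2, the ISGF3 genes Stat2 and Irf9, the amplifying factor gene Irf7 and the feedback inhibitor genes Usp18 and Socs1. They were chosen by symbol, and all 9 were found among the 23518 symbols of the deposited table and passed the filter on low values. RNA was taken from ear skin of 3 HdR and 3 WT samples, and HdR is taken from the design text to stand for the HOIL1 ΔRING1 genotype, a deletion of the RING1 domain. HOIL1 is the product of Rbck1 and a subunit of LUBAC, the complex that builds linear ubiquitin chains. Both genotypes received 10 mg of cream with 5% imiquimod on the ears and were sampled on day 1, so skin without imiquimod was not compared. Imiquimod is an agonist of Toll-like receptor 7. The mice's age, sex and strain, whether the deletion is in all cells, and whether each sample is 1 mouse are not stated in the labels. P values therefore measure the spread between these samples, which may be technical.

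In the pathway, type I interferons bind a receptor of the IFNAR1 and IFNAR2 chains, to which the kinases TYK2 and JAK1 are attached. The kinases phosphorylate STAT proteins, of which STAT2 enters the ISGF3 complex together with IRF9. ISGF3 binds interferon-stimulated response elements (ISREs) and induces antiviral genes, among them Stat2, Irf9, Irf7 and Usp18 themselves. IRF7 amplifies the response by inducing interferon genes, USP18 blocks signalling at IFNAR2 and removes the ubiquitin-like protein ISG15 from its targets, and SOCS1 inhibits the JAK kinases. In skin, imiquimod is known to induce type I interferon in plasmacytoid dendritic cells.

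Coverage was lower in HdR skin for Stat2, Usp18, Jak1 and Tyk2, and 0 of the 9 genes were called higher. The 4 genes passed limma at an adjusted p under 0.05, the threshold used throughout, while 17.9% of all 15049 genes tested were called lower and 30.6% in either direction. With the replicate number as a block, which pairs same-numbered libraries, 5 of the 9 were called lower, Irf9 being added, against 27.2% of all genes. That pairing was read from these same data and not from the labels, so calls gained only with the block are tentative. Leaving out HdR replicate 2 or WT replicate 1 left 1 of the 9 called lower, Stat2, and HdR replicate 1 or WT replicate 3 left 2. Mean Stat2 coverage in HdR was 41.9% of that in WT, and the drop of Stat2 and of Usp18 remained when the dependence on transcript length described below was removed. The calls of Jak1 and Tyk2 did not. For 5 of the 9 genes, the called 4 and Irf9, every HdR library lay under every WT library, against 30.7% of all genes tested, and for Ifnar2 every HdR library lay above (20.9% of all genes, and 51.5% in either direction). Irf7 and Socs1 gave no call, and their genotypes overlapped. Levels are aligned bases of a gene per Mb of scaled library, each change subtracts WT from HdR after taking log2(value + 1), and errors are SD with n = 3 per genotype.

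**Figure D1:**
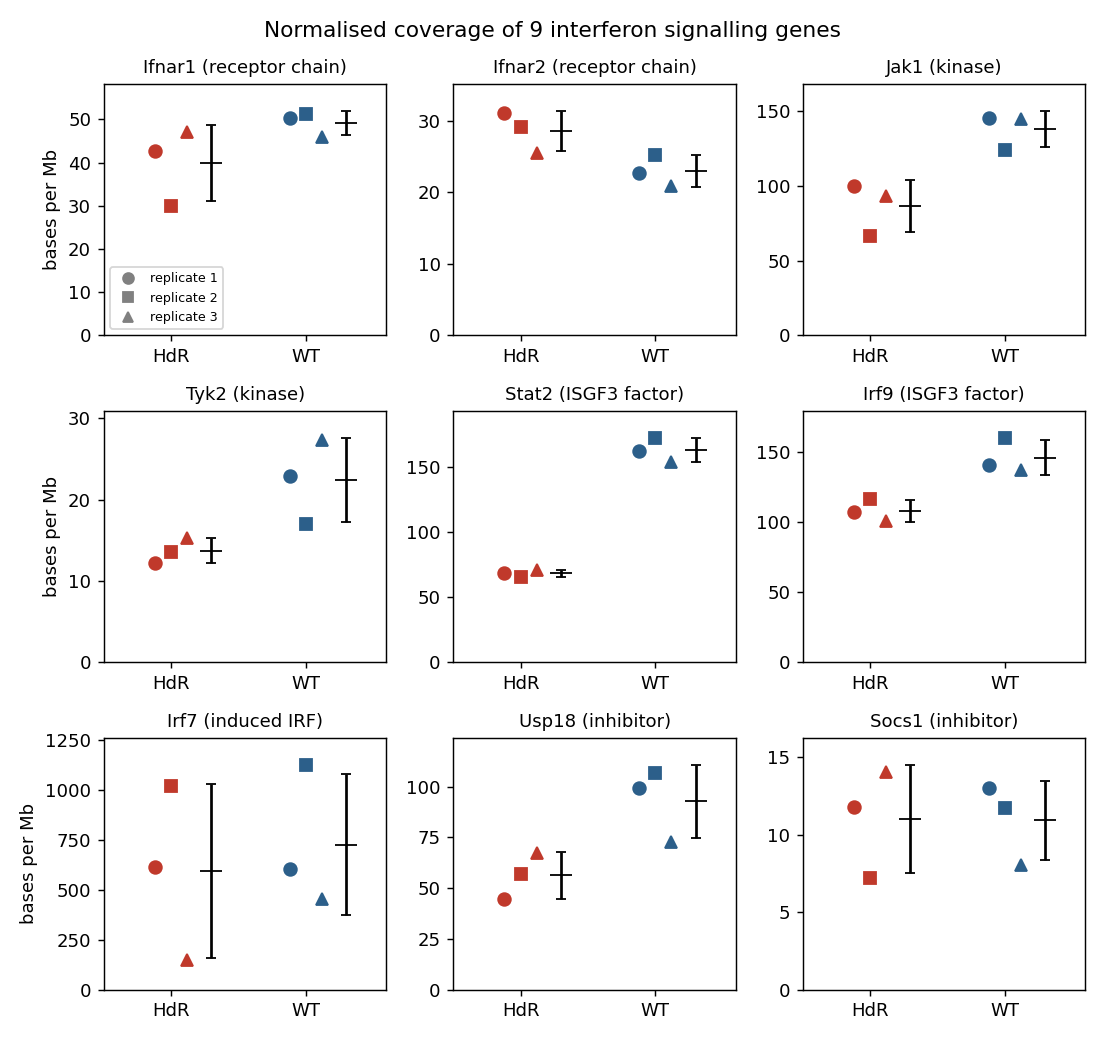
Normalised coverage (bases per Mb, axes from 0) of each gene in the 3 HdR libraries (red) and the 3 WT libraries (blue). Marker shapes give the replicate number, and the black bars are mean and SD. The HdR libraries of Stat2 sit between 65.7 and 71.0, under all WT libraries, while those of Irf7 spread from 147 to 1018.

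The libraries differed in more than genotype. They held the equivalent of 14.8 to 17.5 M read pairs in HdR and 16.8 to 19.9 M in WT, and each gene here had from 84.0 (Socs1) to 21565 (Irf7) read pairs of 300 bases per library. Longer transcripts had lower coverage in HdR than in WT. The median change was 0.64 in the shortest decile of genes tested (up to 1289 nt) and -0.58 in the longest (from 6641 nt), and -0.13 over all genes. With total scaling the overall median was -0.41, so that every change is read relative to it there. Genotype and length trend cannot be told apart, and changes with a smooth length trend removed from each library are given beside the others. Rbck1, the gene of HOIL1, had 23.9, 13.0 and 19.7 bases per Mb in HdR and 66.6, 55.1 and 64.1 in WT. A sum over the gene does not show which exons lost reads.

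**Figure D2:**
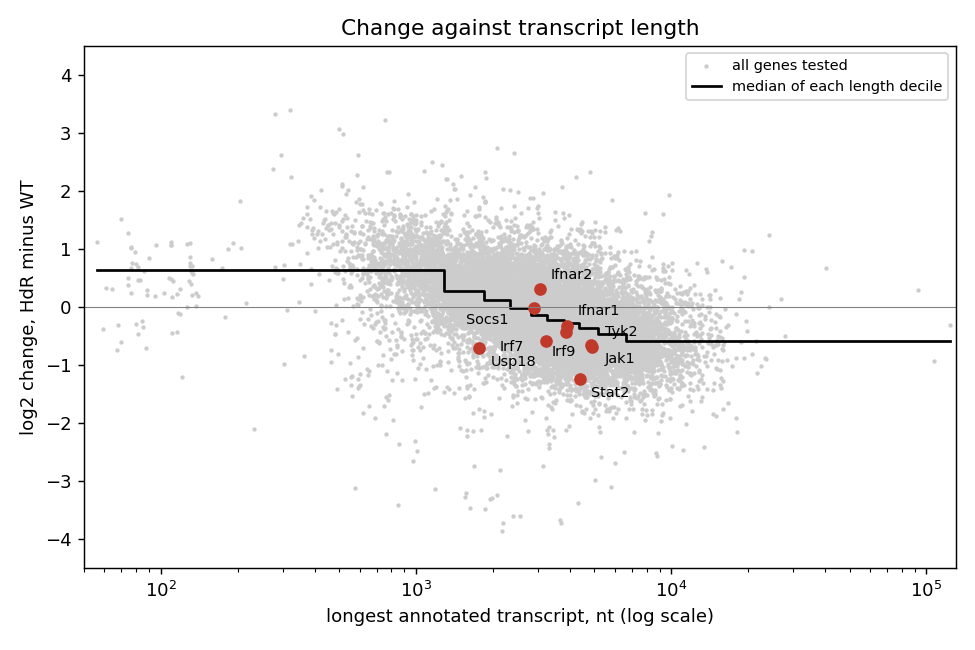
Log2 change (HdR minus WT) of all genes tested (grey) against the longest annotated transcript, with the median of each length decile as steps and the 9 genes in red. Usp18, in a decile with a median of 0.27, stands at -0.71, and Stat2, in a decile with a median of -0.36, at -1.24.

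The promoter letters of 2 of these genes hold the ISRE core and are shown because Stat2 fell while Socs1 was not called. The windows are the 250 bases before the start site (RefSeq, GRCm38.p6), at chr10:128270248-128270497 on the plus strand for Stat2 and chr16:10785537-10785786 on the minus strand for Socs1. Capitals mark the ISRE core, GAAA, any 2 bases and GAAA, on either strand:
Stat2: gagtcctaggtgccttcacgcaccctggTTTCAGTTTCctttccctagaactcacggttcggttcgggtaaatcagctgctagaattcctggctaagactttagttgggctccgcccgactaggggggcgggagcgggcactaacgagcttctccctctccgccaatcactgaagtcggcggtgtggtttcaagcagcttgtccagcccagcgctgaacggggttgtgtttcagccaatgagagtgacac
Socs1: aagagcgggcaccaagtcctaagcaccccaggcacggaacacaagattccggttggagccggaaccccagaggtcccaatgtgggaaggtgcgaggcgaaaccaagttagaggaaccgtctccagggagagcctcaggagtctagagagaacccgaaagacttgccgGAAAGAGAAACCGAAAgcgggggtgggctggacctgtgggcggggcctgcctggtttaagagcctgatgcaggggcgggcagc
The match in Stat2 begins 222 bases before the start and is read on the opposite strand. The 2 matches in Socs1 begin 83 and 77 bases before it and overlap. RefSeq windows were matched for 8 of the 9 genes, Usp18 being the exception, and the core was found in 2 of these 8, in 11 of 29 windowed ISGF3 target genes and in 2.98% of all 32851 windows. The STAT element TTC, any 3 bases and GAA, searched on both strands, was found in Ifnar2 alone of the 8, 214 bases before the start, and in 7.02% of all windows. A match is a stretch of letters and not a shown binding site, and a window without one says nothing about the factor.

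The receptor genes were not called in either direction. Ifnar1 (ENSMUSG00000022967.13; chromosome 16, 91485238 to 91507441, plus strand), the gene of the chain that holds TYK2, had 42.7, 30.1 and 47.1 bases per Mb in HdR replicates 1 to 3, against 50.4, 51.3 and 46.0 in WT. HdR replicate 3 lay within the WT range and the other HdR libraries under it. The log2 change was -0.32 (SE 0.19, limma adjusted p = 0.218) and -0.04 without the length trend (limma adjusted p = 0.857). Ifnar2 (ENSMUSG00000022971.18; chromosome 16, 91372783 to 91405589, plus strand), the gene of the chain that holds JAK1 and is the docking site of USP18, had 31.1, 29.2 and 25.5 in HdR, against 22.7, 25.3 and 20.8 in WT. HdR replicate 3 and WT replicate 2 nearly touched. Its change was 0.30 (SE 0.16, limma adjusted p = 0.171), 0.43 without the length trend (limma adjusted p = 0.0667) and -0.0032 with total scaling. With the length trend removed and the replicate block, Ifnar2 passed (limma adjusted p = 0.0314). Of the exonic bases of Ifnar2, 9.46% are shared with Gm21970 on the same strand.

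Both kinase genes were lower in HdR. Jak1 (ENSMUSG00000028530.14; chromosome 4, 101152367 to 101265282, minus strand) had 99.5, 66.3 and 93.4 bases per Mb in HdR, against 145, 124 and 145 in WT, and HdR replicate 2 was the lowest. The change was -0.69 (SE 0.19, limma adjusted p = 0.0282), and -0.31 without the length trend (limma adjusted p = 0.130). It was -0.51 without HdR replicate 2 (adjusted p = 0.0516), -0.65 without WT replicate 1 (0.113) and -0.64 without WT replicate 3 (0.0880), each by limma, and none of these passed. Tyk2 (ENSMUSG00000032175.11; chromosome 9, 21104068 to 21131243, minus strand) was covered at a lower level, with 12.2, 13.6 and 15.3 in HdR, against 22.9, 17.0 and 27.3 in WT. The genotypes did not overlap, although HdR replicate 3 and WT replicate 2 lay close. The change was -0.65 (SE 0.20, limma adjusted p = 0.0404) and -0.28 without the length trend (limma adjusted p = 0.265). Leaving out a library ended the call of Tyk2 for every library except WT replicate 2, with changes of -0.49 to -0.81 over all of them and limma adjusted p of 0.0109 to 0.150. With 4906 and 4828 nt, Jak1 and Tyk2 have the longest transcripts of the 9 genes. Tyk2 shares 8.07% of its exonic bases with the antisense gene 1700084C06Rik, and since strand is not given their reads cannot be told apart.

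Stat2 (ENSMUSG00000040033.16; chromosome 10, 128270559 to 128292849, plus strand), the STAT that is particular to ISGF3, showed the clearest separation. It had 68.6, 65.7 and 71.0 bases per Mb in HdR, against 163, 173 and 154 in WT, with little spread within a genotype. The mean was 68.4 ± 2.67 in HdR and 163 ± 9.37 in WT, a change of -1.24 (SE 0.14, limma adjusted p = 0.00283). The change stayed between -1.56 and -0.87 and passed in all 19 alternatives, with a limma adjusted p of at most 0.0314. Without the length trend it was -0.91 (limma adjusted p = 0.00855). Irf9 (ENSMUSG00000002325.15; chromosome 14, 55603571 to 55610030, plus strand), the DNA-binding subunit of ISGF3, had 107, 116 and 101 in HdR, against 141, 160 and 137 in WT. All HdR libraries were under all WT libraries, but Irf9 missed the threshold (change -0.43, SE 0.15, limma adjusted p = 0.0560). The replicate block, where same-numbered libraries differed by -0.39, -0.46 and -0.44, gave a limma adjusted p of 0.0210. Without the length trend the change was -0.16 (limma adjusted p = 0.487). Irf9 starts within the end of Rnf31, the gene of the catalytic LUBAC subunit, and 123 exonic bases, 2.28% of those of Irf9, belong to both. Rnf31 stood at 7.48 ± 2.22 in HdR and 18.8 ± 7.30 in WT (change -1.18, limma adjusted p = 0.0271, and -0.80 with adjusted p = 0.0609 without the length trend).

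**Figure D3:**
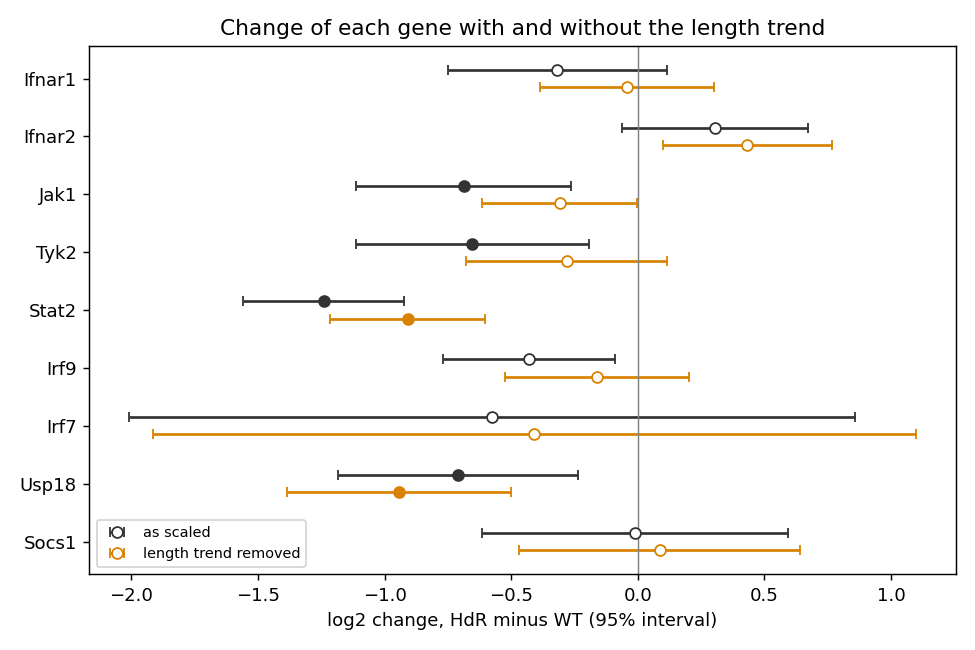
Log2 change (HdR minus WT) of each gene with its 95% interval, as scaled (dark) and with the length trend removed (orange). Filled points have a limma adjusted p under 0.05. Stat2 and Usp18 are filled in both, Jak1 and Tyk2 only as scaled, and the Irf7 interval runs from -2.01 to 0.86.

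Irf7 (ENSMUSG00000025498.15; chromosome 7, 141262706 to 141266481, minus strand) varied more within the genotypes than between them. It had 613, 1018 and 147 bases per Mb in HdR replicates 1 to 3, against 602, 1123 and 451 in WT. Replicates 1 and 2 nearly matched across the genotypes, whereas HdR replicate 3 was far under WT replicate 3. The highest library was 6.94 times the lowest within HdR and 2.49 times within WT, against at most 1.96 times for any other of the 9 genes. The change was -0.58 (SE 0.63, limma adjusted p = 0.499), 0.23 without HdR replicate 3 (limma adjusted p = 0.682) and -1.16 at the lowest when another library was left out. The 5 genes whose log2 coverage followed Irf7 most closely over the 6 libraries, among 11728 ranked, were Rcn3, Bst2, H2-T23, Psmb10 and Ifitm3, with Pearson r from 0.988 to 0.993. The libraries share their depth and composition in all these genes, so r is a description. Bst2, H2-T23, Psmb10 and Ifitm3 are known interferon-induced genes. Bst2, the gene of the antiviral protein tetherin, had 351, 729 and 92.7 in HdR, against 428, 732 and 343 in WT. Phrf1 shares 45 exonic bases with Irf7 on the opposite strand, 1.19% of those of Irf7, and had a change of -0.87 (limma adjusted p = 0.0421).

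The inhibitor genes differed from each other. Usp18 (ENSMUSG00000030107.10; chromosome 6, 121245906 to 121270917, plus strand) had 44.5, 57.2 and 67.5 bases per Mb in HdR, against 99.2, 107 and 72.6 in WT. The genotypes did not overlap, but replicate 3 of each lay close together. The change was -0.71 (SE 0.21, limma adjusted p = 0.0346), and -0.94 without the length trend (limma adjusted p = 0.0195). Its transcript of 1771 nt falls in a length decile with a median change of 0.27. The limma call was lost without HdR replicate 1 (-0.55, adjusted p = 0.104), HdR replicate 2 (-0.73, 0.0776), WT replicate 1 (-0.65, 0.133) or WT replicate 2 (-0.58, 0.0671). Usp18 shares 4.44% of its exonic bases with Gm44148 on the opposite strand. Socs1 (ENSMUSG00000038037.5; chromosome 16, 10782240 to 10785536, minus strand) was the least covered of the 9 genes, with 11.8, 7.18 and 14.0 in HdR, against 13.0, 11.7 and 8.06 in WT. Neither genotype stood above the other. The change was -0.01 (SE 0.27, 95% interval -0.62 to 0.59, limma adjusted p = 0.976), an interval that holds changes in both directions.

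Set per length, as bases per Mb and kb of the longest coding transcript, the levels ran from Irf7 at the top to Tyk2 and Socs1 at the bottom in both genotypes. In HdR the mean levels were 265 ± 195 for Irf7, 36.5 ± 2.63 for Irf9, 31.8 ± 6.49 for Usp18, 17.6 ± 3.60 for Jak1 and 15.6 ± 0.607 for Stat2. Ifnar1 followed with 10.2 ± 2.26, Ifnar2 with 9.38 ± 0.933, Socs1 with 3.78 ± 1.20 and Tyk2 with 2.84 ± 0.318. Within HdR the neighbours Irf9 and Usp18, Jak1 and Stat2, Ifnar1 and Ifnar2, and Socs1 and Tyk2 overlapped across libraries. In WT the levels were 324 ± 158 for Irf7, 52.4 ± 10.1 for Usp18, 49.3 ± 4.20 for Irf9, 37.1 ± 2.13 for Stat2 and 28.1 ± 2.48 for Jak1. Below them stood Ifnar1 with 12.6 ± 0.721, Ifnar2 with 7.53 ± 0.730, Tyk2 with 4.65 ± 1.07 and Socs1 with 3.76 ± 0.882. Within WT the overlapping neighbours were Usp18 and Irf9, and Tyk2 and Socs1. Stat2 lay above Jak1 in every WT library and overlapped with it in HdR.

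Ratios of partner genes within a library do not depend on how libraries are scaled, but the length trend can still enter them. Of 7 ratios, 4 did not overlap between the genotypes, and each had an exact permutation p of 0.1 (two-sided), the smallest that 3 against 3 libraries allow (0.175 adjusted over the 7). The coverage ratio of Irf9 to Stat2 was 1.56, 1.77 and 1.42 in HdR, against 0.865, 0.926 and 0.888 in WT, a log2 difference of 0.82 and of 0.75 without the length trend. That of Usp18 to Ifnar2 was 1.43, 1.96 and 2.65 in HdR, against 4.37, 4.22 and 3.48 in WT, a log2 difference of -1.04 and of -1.38 without the length trend. Both are ratios of RNA coverage in whole skin, and the proportions of the proteins were not measured. The Ifnar2 to Ifnar1 ratio was 0.727, 0.970 and 0.540 in HdR, against 0.450, 0.493 and 0.453 in WT, and the Socs1 to Jak1 ratio was 0.118, 0.108 and 0.150 in HdR, against 0.0895, 0.0943 and 0.0557 in WT. Their log2 differences were 0.64 and 0.68, and shrank to 0.48 and 0.39 without the length trend. The ratios of Tyk2 to Jak1 (log2 difference 0.0035, exact permutation p = 1) and Irf7 to Irf3 (-0.79, exact permutation p = 0.5) overlapped between the genotypes.

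The interferon genes themselves were barely covered on day 1 in both genotypes. Of 20 type I and type III interferon genes listed, 14 were in the table. Ifna1, Ifna2, Ifna9, Ifna12, Ifna16 and Ifne had no row. Of the 14, 13 had any coverage and 0 reached the filter for testing. Ifnb1 had coverage in WT replicate 2 alone, equal to 3 read pairs. The Ifna genes in the table together reached the equivalent of 4.84, 18.6 and 8.90 read pairs in HdR, against 1.00, 3.10 and 0.847 in WT, and Ifna7 in HdR replicate 2 made up 12.4 of these. Ifna genes are near-identical copies, so their reads may be split between them.

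Ifngr1, Ifngr2 and Il10rb, receptor chains of other interferons, were higher in HdR, and Ifnlr1 was not. Of 6 receptor and kinase genes outside the type I receptor, 3 rose and 0 fell, while 12.7% of all genes were called higher. The interferon gamma receptor genes Ifngr1 (133 ± 6.33 in HdR and 75.6 ± 2.80 in WT, change 0.80, limma adjusted p = 0.00979) and Ifngr2 (change 0.79, limma adjusted p = 0.0273) rose. So did Il10rb (change 0.85, limma adjusted p = 0.0177), whose product serves the type III interferon and IL-10 receptors. These 3 passed without the length trend too, but 0 of them passed without WT replicate 1 or with total scaling, and 1 passed without HdR replicate 2 or WT replicate 3. Ifnlr1 (-0.45, every HdR library under every WT library), Jak2 (-0.56) and Jak3 (-0.61) did not pass, Jak2 having a limma adjusted p of 0.0388 with the replicate block.

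Among other STAT genes, Stat6, the STAT of IL-4 and IL-13 signalling, fell by 0.72 (limma adjusted p = 0.0283, and 0.0591 without the length trend). Stat5b (-0.46) missed the threshold but passed with the replicate block (limma adjusted p = 0.0369), and Stat4 (-0.24), Stat3 (-0.06) and Stat5a (-0.06) did not pass. Of the other IRF genes, Irf3, which induces interferon beta downstream of nucleic acid sensors, had a change of 0.21 and Irf1 one of -0.37, while Irf2, Irf4, Irf5 and Irf8 ran from -0.12 to 0.01, all without a call.

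Among 16 other inhibitor genes, Socs7 (-1.31), the phosphatase gene Ptpn11 (-1.08) and Pias1 (-0.53) fell and 0 rose, with limma adjusted p of 0.0208, 0.0137 and 0.0305. The 3 of 16 called lower are close to the 17.9% of all genes tested, and leaving out WT replicate 1 left 0 of the 16 called lower, while leaving out HdR replicate 1, HdR replicate 2 or WT replicate 3 left 1. Pias3 (-0.55) missed narrowly (limma adjusted p = 0.0503). Without the length trend Ptpn11 still passed, Socs2 and Pias2 were called higher (0.70 and 0.53, limma adjusted p = 0.0255 and 0.0268), and Socs7 and Pias1 were not called. With the replicate block 6 of the 16 were called lower and 2 higher, beside 27.2% and 18.3% of all genes. In the ISG15 system, on whose conjugates USP18 acts, Uba7, the gene of the activating enzyme, fell by 1.41 (limma adjusted p = 0.00774). Isg15 itself (-0.36, limma adjusted p = 0.581) had 318, 717 and 186 in HdR, against 397, 764 and 298 in WT, the library order of Irf7. The conjugating enzyme gene Ube2l6 (-0.91) and the ligase gene Herc6 (-0.69) passed with the replicate block (limma adjusted p = 0.00861 and 0.00801).

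Of 37 ISGF3 target genes tested 23 fell and 0 rose, with a median change of -1.05, beside 17.9% of all genes called lower and a median of -0.13. Without the length trend 18 fell (median -0.95, beside 8.48% of all genes), and without WT replicate 1 it was 9. The smallest p values belonged to Eif2ak2 (PKR, change -1.44), Oasl2 (-1.57), Oas3 (-1.45) and Ddx58 (RIG-I, -2.12), with limma adjusted p from 0.00167 to 0.00353. Eif2ak2 stood at 66.4 ± 3.43 in HdR and 182 ± 13.1 in WT. Changes of the 14 targets without a call ran from -1.16 for Ifit2 to 1.35 for Ifi27l2a, and Ifi27l2a was called higher with the replicate block (limma adjusted p = 0.00196). Its transcript of 463 nt falls in the shortest length decile, which has a median change of 0.64. Without the length trend the change of Ifi27l2a was 0.68 (limma adjusted p = 0.285). Many targets without a call had the library order of Irf7. Within each genotype replicate 2 was highest and replicate 3 lowest in 10 of these 14, among them Bst2, Oas1a and Zbp1, in 5 of the 23 that fell and in 10.9% of all genes tested. The slope of log2 coverage on log2 transcript length was lowest in replicate 2 and highest in replicate 3 of each genotype. It was -0.13, -0.27 and -0.081 in HdR replicates 1 to 3, and 0.19, 0.040 and 0.25 in WT. Short transcripts thus tended to be highest in replicate 2. Bst2 has 792 nt, Oas1a 1885 nt and Zbp1 3325 nt. The part of the length trend in this library order was not tested. A wide spread within genotypes itself makes a call less likely, so the split by call is not independent of this order. The 37 genes were picked for their known regulation and are not independent of each other.

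**Figure D4:**
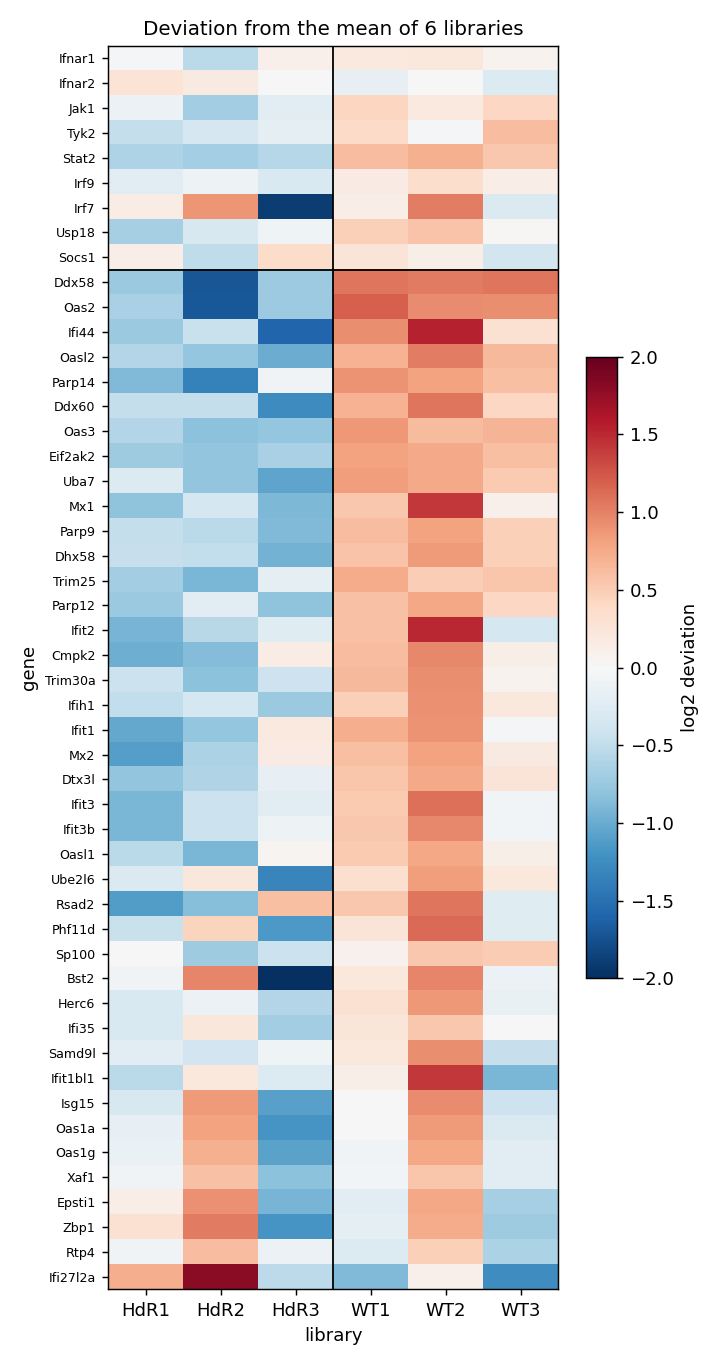
Log2 deviation of each gene from its mean over the 6 libraries (columns, HdR left of the line and WT right). The 9 genes are on top, then the ISG15 system and ISGF3 targets ordered by their change. Stat2 and the upper targets split by genotype, while Irf7, Isg15, Bst2 and Oas1a are highest in replicate 2 and lowest in replicate 3 of each genotype.

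Markers of several cell types moved with the genotype, while 12.7% of all genes tested were called higher and 17.9% lower. Summed coverage of 8 macrophage markers was 2814 to 3059 in HdR and 866 to 1628 in WT, with 6 of 8 higher, and that of 9 hair follicle markers was 32.5 to 139 in HdR and 589 to 899 in WT, with 9 of 9 lower. Lyz2 was the largest part of the macrophage sum (1536 to 1927 in HdR and 374 to 820 in WT). Of 9 neutrophil markers 6 were tested and 5 were higher, with sums of 699 to 3187 in HdR and 142 to 198 in WT. Csf3r gave no call, and Ly6g, Camp and Ngp stayed under the filter. Most of the neutrophil sum was S100a8 (244 to 1421 in HdR and 50.4 to 68.9 in WT) and S100a9 (396 to 1708 in HdR and 70.3 to 103 in WT). Of 6 keratinocyte markers 2 were lower and 1 higher (10876 to 12379 in HdR and 12195 to 14735 in WT), the most abundant of the marker sums. The 4 leukocyte markers had 0 calls (286 to 555 in HdR and 178 to 364 in WT), and the 7 plasmacytoid dendritic cell markers summed to 194 to 212 in HdR and 187 to 217 in WT, with 1 of the 5 tested higher. Most of that sum was Tcf4 (137 to 152 in HdR and 139 to 184 in WT). The higher gene was Siglech, close to the filter, with 1.43 to 2.30 in HdR and 0.249 to 0.985 in WT. Siglech reached the filter of 1 base per Mb through the HdR libraries alone, so its entry into the test depended on the genotype where it is higher. Its limma adjusted p was 0.0216, and 0.0360 without the length trend. Tcf4, Cox6a2, Ccr9 and Bcl11a gave no call. Of 5 fibroblast markers 2 were lower (5026 to 6410 in HdR and 4803 to 6495 in WT), and of 4 endothelial markers 2 (34.7 to 60.2 in HdR and 74.3 to 95.04 in WT). The largest part of the fibroblast sum was Dcn (3659 to 4561 in HdR and 2542 to 3625 in WT), which was not called as scaled. Col1a1 (60.4 to 120 in HdR and 280 to 394 in WT) and Col1a2 were the lower ones, so the sum joins opposite movements. Of 5 dendritic cell markers 3 were higher (63.3 to 89.4 in HdR and 44.2 to 54.6 in WT), and of 3 tested T and NK cell markers 0 were called (26.9 to 47.1 in HdR and 20.5 to 38.7 in WT). Without the length trend Cd68, C1qa, Krt1, Krtdap, Col1a2, Cdh5 and Cd207 lost their calls, with limma adjusted p from 0.0796 to 0.889. The other marker calls stayed. Dcn (0.81, limma adjusted p = 0.0442) and Trp63 (0.55, limma adjusted p = 0.0311) were then called higher. The part of these cell types in the changes of Stat2, Usp18, Jak1 and Tyk2 was not tested, and in whole skin fewer cells of a type and less RNA per cell cannot be told apart.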

How the data were processed

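Total RNA from ear skin of 3 HdR and 3 WT samples was extracted with TRIzol and RNeasy columns, prepared for sequencing (NEBNext Ultra II RNA kit, NovaSeq instrument), per the labels. The deposited table holds a signal, the coverage per gene symbol as whole numbers that gather at multiples of 300 (1656 values equal 300), which was read as aligned bases of read pairs and not as counts of reads. The build is GRCm38, per the submitters' processing notes, and aligner, annotation and strandedness: not given in the sources used here.

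Bases per Mb were obtained by trimmed-mean scaling of the libraries (TMM, leaving out 30% at the ends of the log ratios and 5% at the ends of the intensities). A gene entered the test when 3 or more libraries reached 1 base per Mb. Its log2(value + 1) was fitted by limma 3.58.1 in R 4.3.3 with a robust intensity trend, two-sided, with Benjamini-Hochberg adjustment over 15049 genes and a threshold of 0.05. The same code was tested on simulated data. Ratios were tested by exact permutation of 20 splits. The length trend is a natural spline (4 degrees of freedom) on the longest transcript in GENCODE M21 (GRCm38), which gave a length to 99.0% of genes tested, and it was fitted to each library and subtracted.

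The genes, lists, markers and tests were chosen with earlier results of these data known. The rule names the 9 genes, Rbck1, overlapping genes (Raver2 shares 4 exonic bases with Jak1 and is not discussed), all genes of lists of at most 7 and the 4 with the smallest p of longer lists, and the 5 genes most like Irf7. Genes outside it, such as Ifit2, Ifi27l2a, Oas1a, Zbp1, Socs2 and Pias2, were named after their values were seen. Some results that the rule covers are not reported here.

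Same-numbered HdR and WT libraries deviated together from their genotype means (r = 0.163, 0.416 and 0.366 for replicates 1, 2 and 3, each over 0.1, against -0.377 to 0.159 for other pairs), so the numbers were taken as pairs from the data, since the labels do not state it. HdR replicate 3 and WT replicate 1, which differ in number, also lay over 0.1 (r = 0.159). The length trend was not removed before these correlations, so it can enter them. A block chosen this way can make its p values too small. Alternatives were other scalings, filters and pseudocounts, voom, the replicate block, removal of the length trend and each library left out. A length trend on coding transcripts, and the trend removed without HdR replicate 3, were chosen after seeing the data.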

Additional observations from a re-analysis of the deposited data

How the results depend on the processing

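Stat2 passed in all 19 alternatives, Usp18 in 13, Jak1 in 10, Tyk2 in 6, Irf9 in 4 and Ifnar2 in 2, while Ifnar1, Irf7 and Socs1 passed in 0. Genes called lower among the 9 were 4, against 1 with no filter and 2 without the length trend. Removing the trend on coding transcripts also left 2. So did removing the length trend together with the replicate block, or together with leaving out HdR replicate 3. Removing it together with leaving out HdR replicate 2 left 1, and leaving out each library with the trend kept gave 1 to 3. Genes called higher were 0, also with each library left out (0 to 0), but 1 (Ifnar2) with voom and with the length trend removed in the replicate block. In the pathway lists together 30 were lower and 3 higher. Lower were 19 with no filter, 12 and 18 without the trend and HdR replicate 2 or 3, and 11 to 28 with each library left out. Higher were 0 with total scaling, 5 with quantile scaling or without the length trend, 6 with voom, the replicate block (also without the trend) or a threshold of 0.1, and 0 to 4 with each library left out. Over all genes 1904 were higher and 2701 lower. Higher were 917 with total scaling, 1017 with no filter, 3408 with voom, 400 and 945 without the trend and HdR replicate 2 or 3, and 197 to 2657 with each library left out. Lower were 4305 with total scaling, 1127 with no filter, 4647 with voom, 4094 with the replicate block, 1263 without the length trend, 1196 with the trend on coding transcripts, 413 and 679 without the trend and HdR replicate 2 or 3, and 230 to 3359 with each library left out, the fewest calls in both directions coming without WT replicate 1.

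Ifnar1 turned to 0.076 without the trend and HdR replicate 2 and 0.0039 with the trend on coding transcripts. Ifnar2 was -0.0032 with total scaling. Irf7 ran from -1.16 to 0.23 with each library left out (0.23 being the value without HdR replicate 3), and reached 0.42 without the trend and HdR replicate 3. Socs1 was 0.046 with median-of-ratios scaling, 0.21 with quantile scaling, 0.019 with voom, 0.086 without the trend (with the replicate block too), 0.15 with the trend on coding transcripts, 0.30 without the trend and HdR replicate 2, and -0.20 to 0.24 with each library left out, where it was 0.24 without HdR replicate 2, 0.12 without WT replicate 1 and 0.06 without WT replicate 2. With each library left out the log2 ratio difference ran from -0.17 to 0.20 for Tyk2 to Jak1, from -1.46 to 0.028 for Irf7 to Irf3, from 0.74 to 0.90 for Irf9 to Stat2, from -1.26 to -0.81 for Usp18 to Ifnar2, from 0.43 to 0.85 for Ifnar2 to Ifnar1 and from 0.44 to 0.82 for Socs1 to Jak1. The causes were not tested. Where a library is left out of 3, the remaining pair sets that genotype's spread. All 9 genes passed the filter on normalised values, while the interferon genes in the table did not pass it and were not tested.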
